A study of Mus musculus with 9 samples.

Results

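The genes described here encode the nuclear subunits of respiratory chain complexes I to V, measured in mouse macrophages of the peritoneum and of a tumour. They were chosen by name on the array: Nduf genes for complex I, Sdh genes for complex II, Uqcr genes for complex III, Cox4 to Cox8 genes for complex IV and Atp5 genes for complex V. This gave 124 of 59305 non-control spots, 115 probes and 85 of 36413 gene names: 37 genes of complex I, 4 of complex II, 8 of complex III, 19 of complex IV and 17 of complex V. The rule used no measured value.

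The respiratory chain sits in the inner mitochondrial membrane. Complex I takes electrons from NADH and complex II takes them from succinate, both pass them to ubiquinone, complex III hands them on to cytochrome c, and complex IV gives them to oxygen. Complexes I, III and IV pump protons, and complex V, the ATP synthase, uses the proton gradient to make ATP. In macrophages the balance between this route and glycolysis is known to differ between activation states.

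Messenger RNA was measured on 9 single-colour Agilent arrays with Cy3-labelled RNA from C57BL/6J mice, 3 arrays per group. The control macrophages came from the peritoneal exudate (PECs). The others were tumour-associated macrophages (TAMs) taken from a fibrosarcoma and sorted by the surface protein F4/80 into F4/80high and F4/80low subsets. No group carries a genetic change or a named treatment in the labels, and the labels used here give no age, no tumour line and no other marker of the sort. Replicates are called biological, but nothing says that each came from its own mouse, so the p-values measure only how these samples scatter, and that scatter may be technical. TAMs and PECs differ at once in tissue and in the presence of a tumour, and these cannot be told apart.

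Spots well above background made up 36.1% to 38.3% of the non-control spots of an array, none was saturated, and 16461 genes were tested. The labelled cell type was checked against 12 macrophage genes. All 12 were above background on the 3 arrays of PECs and of F4/80high TAMs, and 11 of them in F4/80low TAMs. Between the subsets 7 were higher and 0 lower in F4/80high TAMs (median log2 difference 1.76). Against PECs, 6 were lower and 1 higher in F4/80low TAMs (median -1.06), and 3 lower and 4 higher in F4/80high TAMs (median -0.11). In multiples of each array's 75th percentile, they summed to 590 to 869 on F4/80low arrays. The sums were 973 to 1.49e+03 on F4/80high arrays and 989 to 1.2e+03 on PEC arrays. Neutrophil genes were also present in F4/80low TAMs: 13 of 13 were above background on all 3 arrays, against 6 in PECs and 7 in F4/80high TAMs. In multiples of each array's 75th percentile, their levels summed to 1.96e+03 to 8.46e+03 on F4/80low arrays, 231 to 337 on F4/80high arrays and 130 to 171 on PEC arrays. T and NK cell genes summed to 55.8 to 95.9, 22.4 to 27.8 and 15.5 to 22.2 in the same order of groups, and no B cell gene was above background. Dendritic cell genes summed to 259 to 304, 290 to 319 and 129 to 193, and 4 of 6 tested were higher and 1 lower in each TAM subset against PECs. Among them Zbtb46 and Ccl22 were above background on the F4/80high arrays alone, Flt3 on the F4/80low arrays alone, and Ccr7 on all TAM arrays and 2 of the PEC arrays. Genes of fibroblasts, tumour and endothelium summed to 46.1 to 55.3, 40.5 to 49 and 23 to 37.5, with 2 of 6 tested higher in each TAM subset and 1 lower in F4/80high TAMs. Of these, Thy1, which T cells also carry, was above background on the F4/80low arrays alone, and Col3a1 on the TAM arrays alone. Of 13 tested proliferation genes, 9 were higher in each TAM subset than in PECs, and 1 was lower in the F4/80low subset. The part of these other genes in the differences below was not tested, and in such mixed samples fewer cells of a type and less RNA per cell cannot be told apart.

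Of the 85 genes, 80 were well above background on all 9 arrays and were tested. Ndufa4l2, Cox7b2, Cox8b and Cox8c were not well above background on any array, and the gene printed as Atp5s on the array was above it on 2 PEC arrays only. Some names caught by the rule are not those of subunits: Atp5s is now Dmac2l, Atp5sl is Dmac2 and Cox4nb is Emc8, a membrane insertase component. Ndufa4 is counted here under complex I by its name, although it is now placed with complex IV. Levels below are log2 intensities relative to each array's 75th percentile, listed for replicates 1, 2 and 3 of a group, and differences are between group means on the same log2 scale. A gene was called when its adjusted p (limma, Benjamini-Hochberg over all genes) was under 0.05, two-sided. Levels of different genes are not compared, since probes differ in brightness.

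Nuclear-encoded respiratory chain genes are known to be regulated through the transcription factors NRF1, GABP and YY1, so their promoters were searched on both strands for one motif each. The NRF1 motif was GCGCA, any base and then GCGC; the GABP motif was CCGGAAG and the YY1 motif AANATGGC, where N is any base. The motifs share no stretch of letters that would make a match to one a match to another, and the window ran from 250 bases before to 50 bases after the gene start in RefSeq (build GRCm38, 300 bases). Of the 66 tested members with a promoter in that table, 17 (25.8%) held the NRF1 motif, against 5.19% of 27025 genes. The latter are all genes of that table, also those not tested here, and the share over tested genes alone was not counted. The GABP motif stood in 16 (24.2%, against 9.93%) and the YY1 motif in 18 (27.3%, against 6.96%). The 250 bases before the gene start are shown for 4 members, 5′ to 3′ on the strand of the gene, with motif matches in capitals. Sdha and Cox6a1 are shown as members that hold several matches, and Ndufa4 and Cox7a1 because their transcripts differed most between groups. Sdha lies at chr13:74350241-74350490 (minus strand), Cox6a1 at chr5:115348959-115349208 (minus), Ndufa4 at chr6:11907451-11907700 (minus) and Cox7a1 at chr7:30183921-30184170 (plus).
Sdha: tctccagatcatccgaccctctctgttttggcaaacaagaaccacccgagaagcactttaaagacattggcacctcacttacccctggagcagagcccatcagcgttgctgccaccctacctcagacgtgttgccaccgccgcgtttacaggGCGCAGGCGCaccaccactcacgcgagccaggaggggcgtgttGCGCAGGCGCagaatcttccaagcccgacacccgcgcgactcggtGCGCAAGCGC
Cox6a1: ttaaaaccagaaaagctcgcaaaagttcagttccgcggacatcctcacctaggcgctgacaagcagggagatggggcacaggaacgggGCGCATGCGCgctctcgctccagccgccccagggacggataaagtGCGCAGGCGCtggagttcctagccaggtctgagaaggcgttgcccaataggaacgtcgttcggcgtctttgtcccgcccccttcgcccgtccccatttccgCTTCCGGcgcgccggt
Ndufa4: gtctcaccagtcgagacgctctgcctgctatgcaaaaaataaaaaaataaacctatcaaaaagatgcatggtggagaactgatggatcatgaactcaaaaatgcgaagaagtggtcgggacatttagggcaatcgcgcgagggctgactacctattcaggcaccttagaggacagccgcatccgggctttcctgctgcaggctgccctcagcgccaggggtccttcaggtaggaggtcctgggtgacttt
Cox7a1: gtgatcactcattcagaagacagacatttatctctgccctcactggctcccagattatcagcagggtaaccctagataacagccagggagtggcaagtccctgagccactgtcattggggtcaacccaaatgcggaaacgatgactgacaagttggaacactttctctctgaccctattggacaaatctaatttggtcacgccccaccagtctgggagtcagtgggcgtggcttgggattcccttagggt
Sdha held 3 NRF1 matches, starting 98, 55 and 10 bases before the gene start. Cox6a1 held 2 NRF1 matches, at 162 and 117 bases, and 1 GABP match at 16 bases on the opposite strand. The windows of Ndufa4 and Cox7a1 held none of the 3 motifs. A match is a description of letters and not of binding. Between the TAM subsets, 21 of 44 members with any of the motifs and 16 of 22 without were called lower in F4/80high TAMs. Of all tested genes 14% were called lower, with or without a motif, and this split was not tested.

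Members of every complex were called lower in F4/80high TAMs than in PECs: 22 of 36 tested in complex I, 4 of 4 in complex II, 3 of 8 in complex III, 6 of 16 in complex IV and 7 of 16 in complex V. Complex IV also had 3 members higher. In F4/80low TAMs against PECs, 2 members of complex I, 1 of complex II, 3 of complex III, 5 of complex IV and 4 of complex V were higher, while 5 of complex I and 1 named with complex IV were lower. Counted together against PECs, 42 of 80 members were lower and 3 higher in F4/80high TAMs, with a median log2 difference of -0.50. Over all genes 53.1% passed this test (28% lower, 25% higher) and the median was 0.00, so the members' share past the test was near the background and their direction was one-sided. The arrays of the groups did not overlap for 57 of 80 members, against 65.2% of all genes. In F4/80low TAMs against PECs, 15 members were higher and 6 lower, with a median of 0.05, where 51.9% of all genes passed (22.7% higher, 29.2% lower) and the median was -0.09. The arrays did not overlap for 29 members, against 59.3% of all genes. Between the subsets, 44 of 80 members were lower in F4/80high than in F4/80low TAMs and 0 were higher, with a median of -0.55, where 32.6% of all genes passed (14% lower, 18.6% higher) and the median was 0.08. The arrays did not overlap for 60 members, against 46.7% of all genes. The comparisons with PECs share the PEC arrays, so their values are given side by side.

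**Figure D1:**
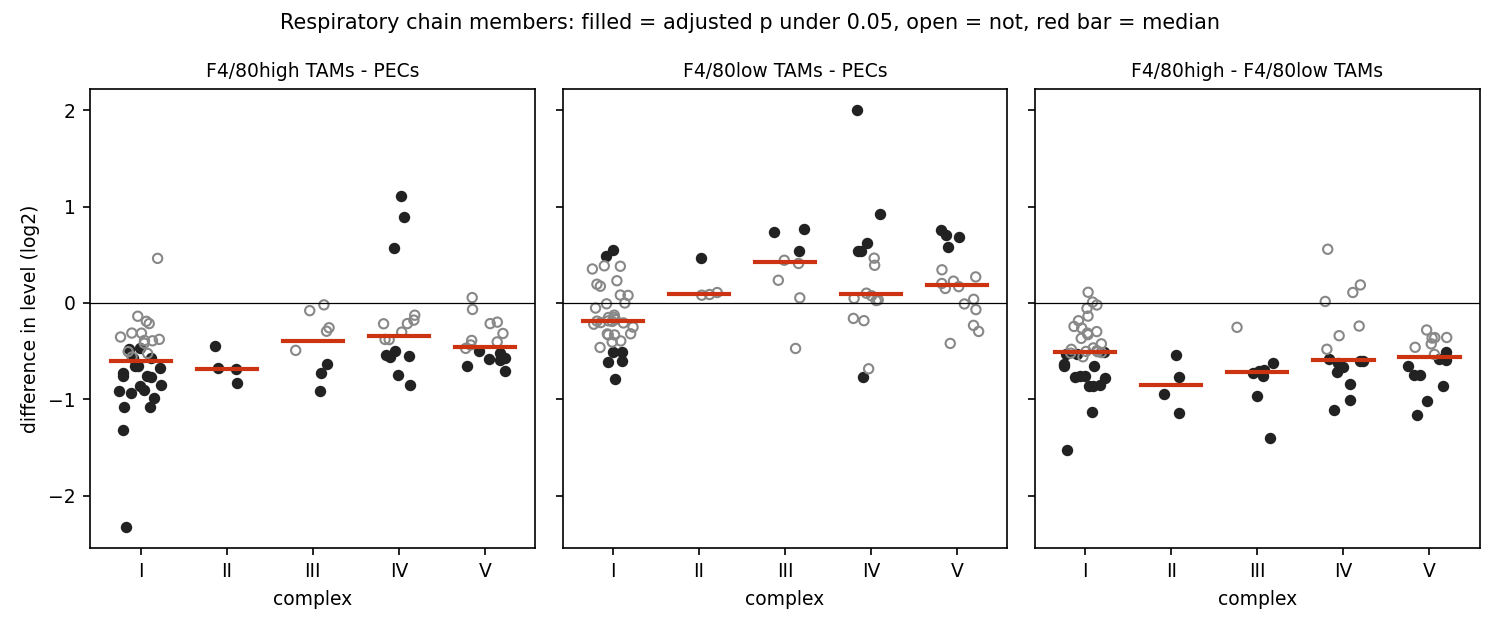
Log2 difference of each of the 80 tested members by complex, 1 panel per comparison; filled points passed the test, open points did not, and the red bar is the median of the complex. In F4/80high TAMs against PECs 75 of 80 members lay below 0, and in F4/80high against F4/80low TAMs 74 did, while F4/80low TAMs against PECs had 44 above 0 and 36 below.

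The scale of these differences depended on the slide and on how arrays were scaled. PEC replicates 2 and 3 lie on one slide, and PEC replicate 1 with all 6 TAM arrays on the other, so the subset comparison lies within 1 slide. A slide term takes up the level of PEC replicates 2 and 3. With slide as a block, differences from PECs therefore rest on PEC replicate 1, and their sizes equal those on slide 1 alone. With slide as a block, 8 members stayed past the threshold in F4/80high TAMs against PECs, all lower, and are named for that reason: Ndufa4 (-2.05), Ndufs7 (-1.21), Uqcr11 (-0.87), Ndufs5 (-0.85), Ndufa1 (-0.79), Ndufa11 (-0.79), Ndufa13 (-0.77) and Ndufs1 (-0.76). These 8 of 80 compare with 34.2% of all genes called under that block. By name, 7 of them belong to complex I and 1 to complex III, and complexes II, IV and V had 0 calls. The 7 include Ndufa4, which is now placed with complex IV. The F4/80low subset kept 8, all higher, where 29.8% of all genes were called: Cox7a1 (1.73), Uqcr10 (0.99), Atp5b (0.90), Uqcrfs1 (0.79), Atp5g3 (0.79), Atp5o (0.72), Uqcrc2 (0.69) and Sdha (0.67). On slide 1 alone, with 1 PEC array, Ndufa4, Ndufs7 and Ndufs5 stayed lower and Cox7a1, Uqcr10 and Atp5b stayed higher, which is 3 of 80 in each comparison against 29.7% and 25.1% of all genes. Centring arrays on the median in place of the 75th percentile moved the median of all genes to -0.16, -0.57 and 0.40 in the 3 comparisons. Both scalings shift all genes of an array alike, so the members' median relative to all genes (-0.51, 0.14 and -0.63) could not differ between them. It was -0.65, -0.14 and -0.50 with normexp background correction, and -0.79, -0.31 and -0.43 without a filter on dim probes. With slide as a block it was -0.39 and 0.24 in the comparisons with PECs. With arrays centred on the median, F4/80low TAMs against PECs gave 1 member higher and 17 lower (53.0% of all genes called). The subset comparison then gave 6 lower (Ndufa4, Ndufs7, Sdha, Uqcr10, Cox7a1 and Atp5g3), where 32.5% of all genes were called. With normexp background correction F4/80low TAMs against PECs gave 7 higher and 27 lower, with 53.5% of all genes called.

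Single arrays also moved these counts by over 1.5 times, and the share of all genes called fell with them. The 45 calls in F4/80high TAMs against PECs became 29 and 24 without PEC replicates 2 and 3 (45.1% and 42.6% of all genes, from 53.1%) and 25 and 27 without F4/80high replicates 2 and 3 (44.7% and 46.0%). For F4/80low TAMs against PECs the 21 calls became 10 and 12 without PEC replicates 2 and 3 (42.8% and 40.1% of all genes, from 51.9%). For the subset comparison the 44 calls became 25 without F4/80high replicate 2, 25 without F4/80high replicate 3 and 27 without F4/80low replicate 1 (23.8%, 26.3% and 29.4% of all genes, from 32.6%). The calls that held whichever single array was left out numbered 24 of 45, 9 of 21 and 24 of 44.

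**Figure D2:**
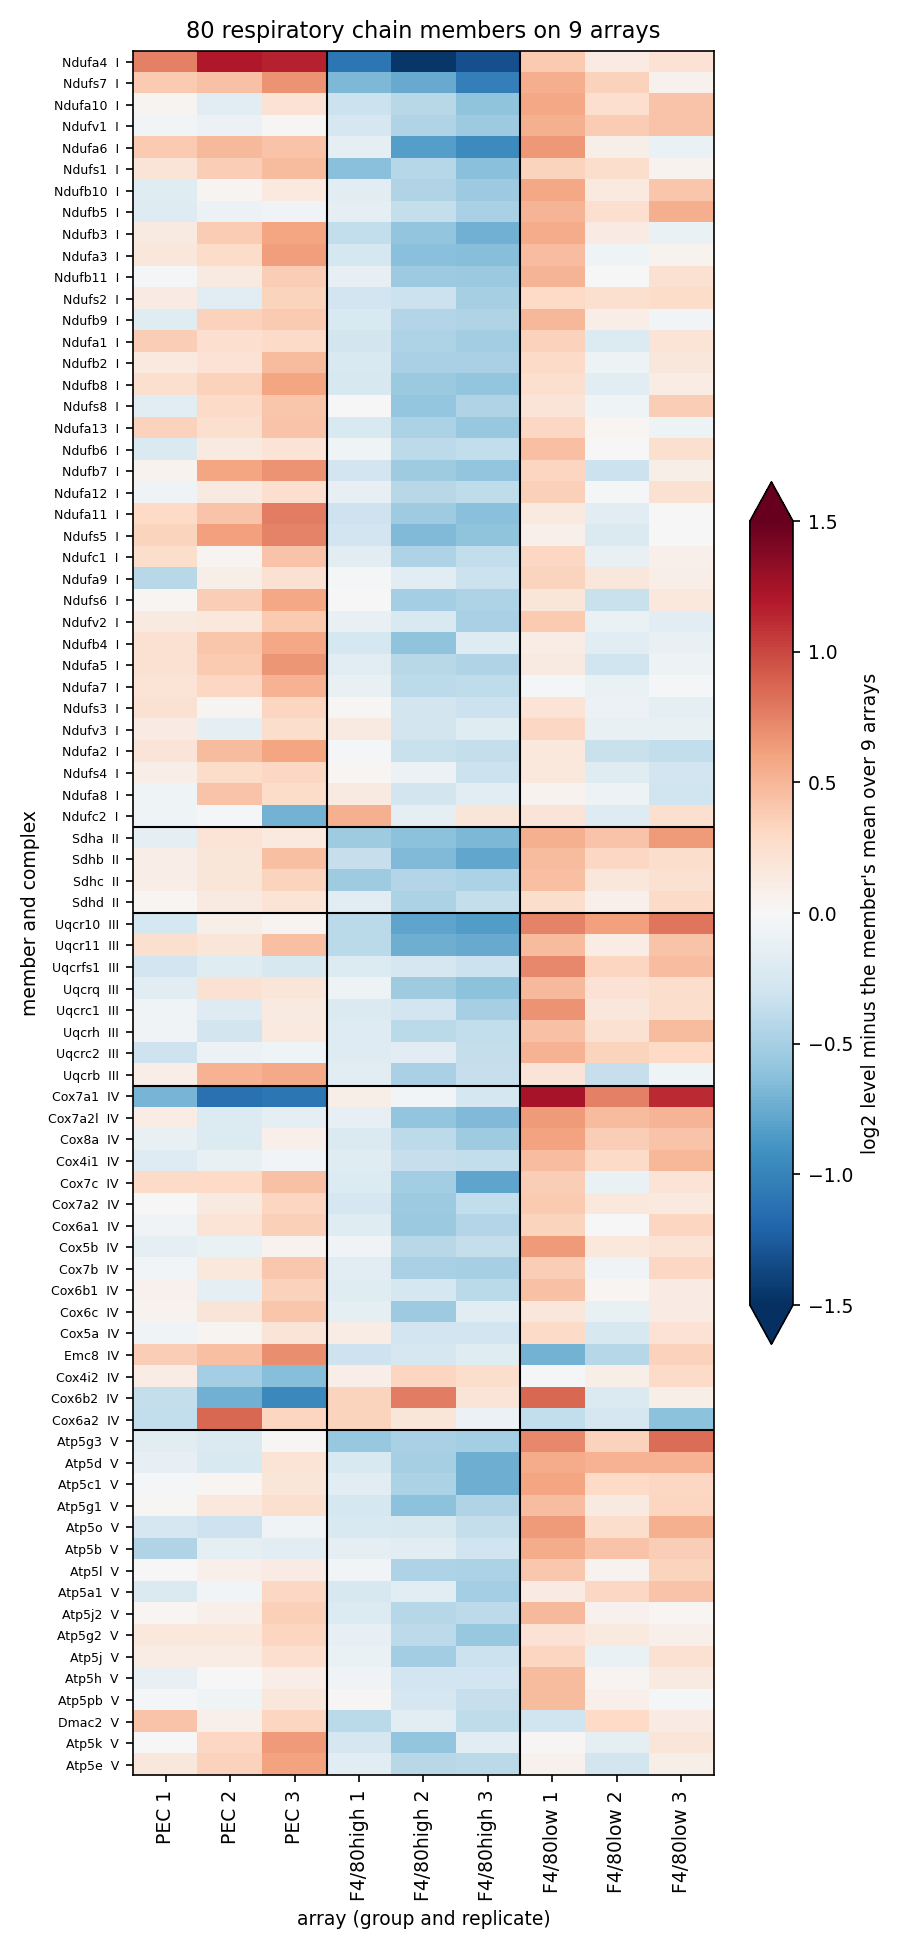
Log2 level of each tested member on each array, minus that member's mean over the 9 arrays, with members ordered by complex and by the difference between TAM subsets (red is higher, blue lower, colours end at 1.5). F4/80high arrays are blue in most rows, F4/80high replicate 1 less so than replicates 2 and 3, and F4/80low replicate 1 is the reddest of its group.

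The members moved together within arrays. The median deviation of the 80 members from their own 9-array means was 0.03, 0.14 and 0.32 on the PEC arrays, -0.18, -0.45 and -0.45 on the F4/80high arrays and 0.39, 0.07 and 0.21 on the F4/80low arrays. All F4/80high arrays lay below all others by this measure, and PEC and F4/80low arrays overlapped. The same held within each of the 5 complexes for the F4/80high arrays.

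Complex I, the entry point for electrons from NADH, had 22 of 36 tested members lower and 0 higher in F4/80high TAMs against PECs (median -0.61). F4/80low TAMs had 2 higher and 5 lower (median -0.19), a median below 0 under every scaling tried. Between the subsets 15 were lower and 0 higher in F4/80high TAMs (median -0.51). Ndufa4 showed the widest gap of all members in the comparisons of F4/80high TAMs. Its probe lies at chr6:11850423-11850482 (mm9). Ndufa4 stood at 5.17, 5.61 and 5.57 on PEC arrays, 3.33, 2.95 and 3.10 on F4/80high arrays and 4.80, 4.54 and 4.64 on F4/80low arrays. The 3 groups did not overlap, with PECs highest and F4/80high TAMs lowest. F4/80high TAMs lay 5.01-fold below PECs (log2 difference -2.33, SE 0.19, adjusted p 1.19e-05) and 2.89-fold below F4/80low TAMs (log2 difference -1.53, SE 0.19, adjusted p 0.000382). Against PECs, the F4/80low subset was 1.74-fold lower (log2 difference -0.80, SE 0.19, adjusted p 0.00658); blocking on slide ended that call (-0.52). Its paralog Ndufa4l2, known to be induced by hypoxia, was not well above background on any array.

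Ndufs7 encodes a core subunit that carries the last iron-sulfur cluster before ubiquinone, and its probe lies at chr10:79719478-79719537. Ndufs7 measured 6.10, 6.14 and 6.37 on PEC arrays, 5.03, 4.95 and 4.68 on F4/80high arrays and 6.25, 6.05 and 5.76 on F4/80low arrays. The F4/80high arrays lay below all others, and PEC and F4/80low arrays overlapped. F4/80high TAMs fell below PECs (log2 difference -1.32, SE 0.19, adjusted p 0.000349) and were 2.19-fold below F4/80low TAMs (log2 difference -1.13, SE 0.19, adjusted p 0.00176). Ndufs1 encodes the large core subunit with several iron-sulfur clusters. Ndufs1 gave 4.63, 4.80 and 4.91 on PEC arrays, 3.81, 4.01 and 3.81 on F4/80high arrays and 4.77, 4.70 and 4.50 on F4/80low arrays. F4/80high TAMs again lay below PECs (log2 difference -0.91, SE 0.16, adjusted p 0.00131) and below F4/80low TAMs (log2 difference -0.78, SE 0.16, adjusted p 0.00545), whose arrays overlapped with each other. Ndufv1 carries the site where NADH is oxidised. Ndufv1 levels were 5.66, 5.62 and 5.72 on PEC arrays, 5.45, 5.25 and 5.16 on F4/80high arrays and 6.24, 6.09 and 6.13 on F4/80low arrays. The groups did not overlap, and F4/80low TAMs were highest: 0.49 above PECs (adjusted p 0.0237) and 0.86 above F4/80high TAMs (adjusted p 0.00236). The difference between F4/80high TAMs and PECs, -0.38, did not pass the test (adjusted p 0.06).

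Ndufs5, an accessory subunit, was lower in both TAM subsets. Ndufs5 stood at 6.21, 6.49 and 6.62 on PEC arrays, 5.59, 5.22 and 5.28 on F4/80high arrays and 5.95, 5.67 and 5.87 on F4/80low arrays. No TAM array reached a PEC array: F4/80high TAMs were 2.12-fold lower (log2 difference -1.08, SE 0.18, adjusted p 0.000987) and F4/80low TAMs 1.53-fold lower (log2 difference -0.62, SE 0.18, adjusted p 0.0195). The subsets did not overlap either, but their difference of -0.47 did not pass the test (adjusted p 0.0807). Ndufa2, another accessory subunit, showed the same fall in both subsets. Ndufa2 measured 6.85, 7.13 and 7.25 on PEC arrays, 6.63, 6.33 and 6.30 on F4/80high arrays and 6.82, 6.33 and 6.29 on F4/80low arrays. It lay 0.66 below PECs in F4/80high TAMs (adjusted p 0.0228) and 0.60 below in F4/80low TAMs (adjusted p 0.034), and the subsets overlapped.

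Ndufa10 and Ndufb5, both accessory subunits, separated the TAM subsets. Ndufa10 gave 3.81, 3.60 and 3.99 on PEC arrays, 3.44, 3.35 and 3.17 on F4/80high arrays and 4.34, 4.02 and 4.19 on F4/80low arrays. The 3 groups did not overlap, and the subset difference was -0.86 (adjusted p 0.00487). F4/80high TAMs were lower than PECs (log2 difference -0.48, SE 0.17, adjusted p 0.0424), and F4/80low TAMs lay 0.38 above PECs without passing the test (adjusted p 0.0917). Ndufb5 levels were 4.96, 5.06 and 5.10 on PEC arrays, 5.02, 4.79 and 4.67 on F4/80high arrays and 5.66, 5.41 and 5.70 on F4/80low arrays. Here F4/80low TAMs stood above both other groups, by 0.55 over PECs (adjusted p 0.021) and by 0.76 over F4/80high TAMs (adjusted p 0.00701). Its other probe, also above background on all 9 arrays, gave 0.12 over PECs (adjusted p 0.637 over all probes) and put F4/80high TAMs 1.26 below PECs (adjusted p 0.000765), where the brighter probe gave -0.22. The Ndufb5 rise over PECs did not pass with the mean of both probes (0.34, adjusted p 0.144), normexp (0.20) or arrays centred on the median (0.07). The other complex I members past the test ran from -1.08 to -0.47 in F4/80high TAMs against PECs. Leaving out 1 array ended the Ndufa10 and Ndufa2 calls in F4/80high TAMs against PECs (-0.63 to -0.39, with any of the 6 arrays left out for one or both). For the F4/80low subset against PECs it ended those of Ndufs5 and Ndufa2 (-0.59 to -0.50) and of Ndufv1 and Ndufb5 (0.44 to 0.56), with PEC replicates 2 or 3 or any F4/80low replicate left out.

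**Figure D3:**
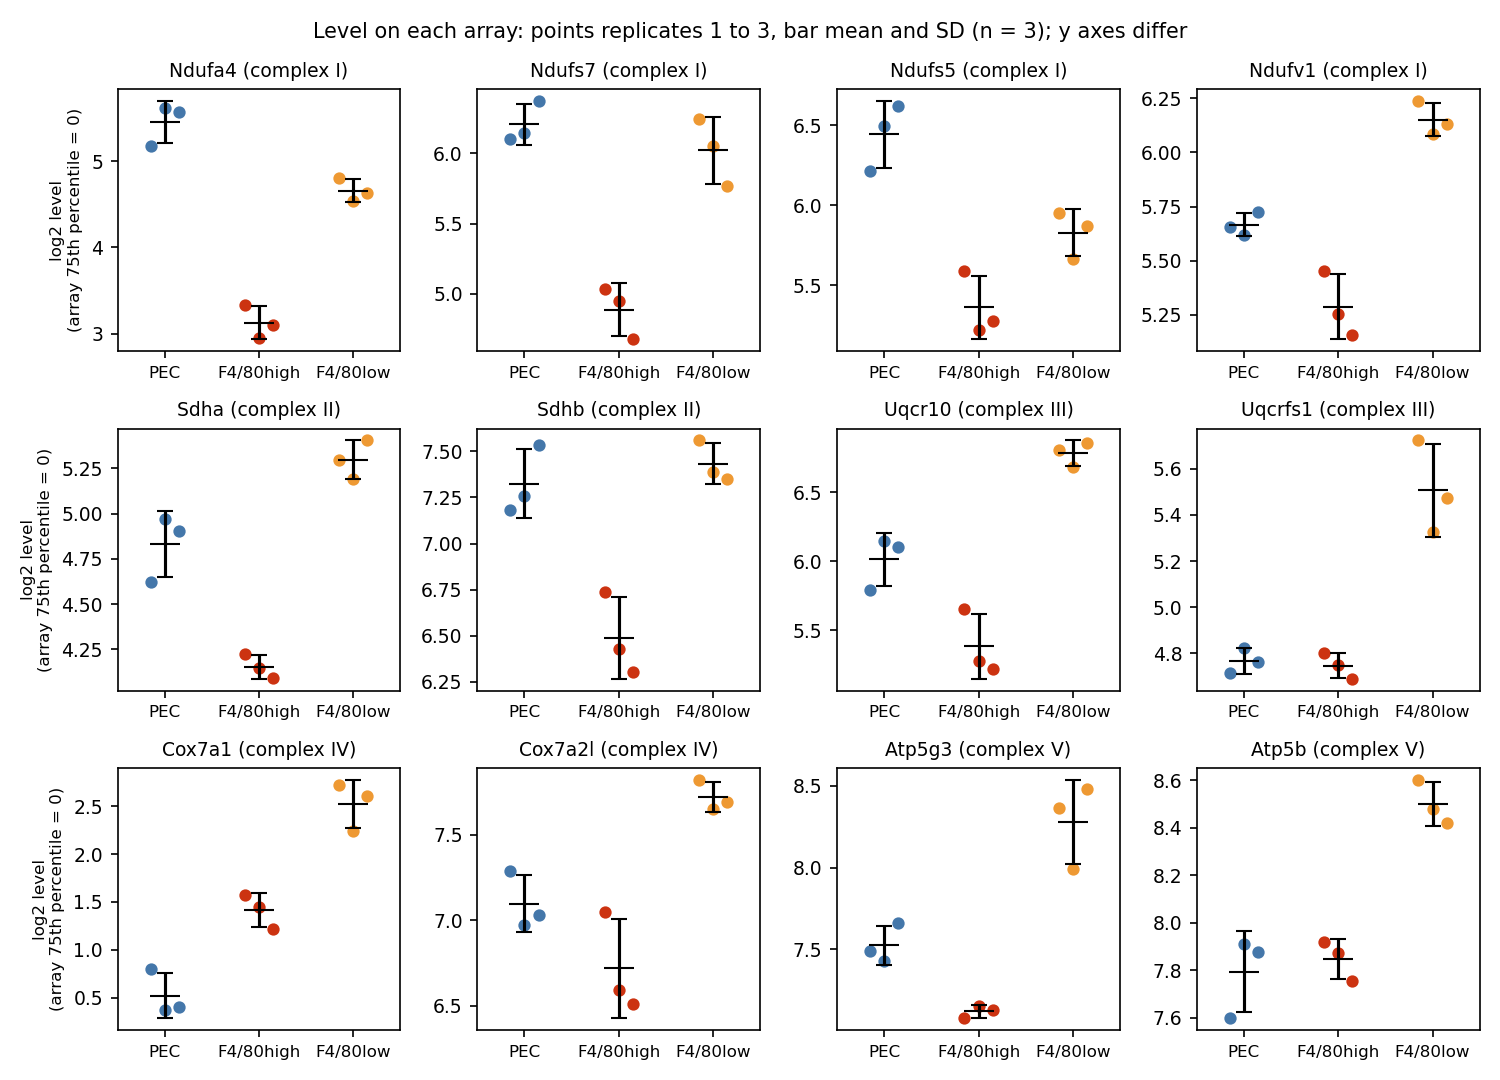
Log2 level of 12 members on each array (points, replicates 1 to 3 from left to right), with group mean and SD (n = 3); each panel has its own y axis, which does not start at 0. Ndufa4, Ndufs7, Sdha, Sdhb and Uqcr10 show F4/80high TAMs below both other groups, and Uqcrfs1, Cox7a2l, Atp5g3 and Atp5b show F4/80low TAMs above both.

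Complex II, succinate dehydrogenase, joins the citric acid cycle to the chain and has 4 subunits, all encoded in the nucleus. All 4 were lower in F4/80high TAMs against PECs (median -0.68) and all 4 lower against F4/80low TAMs (median -0.86). Sdha encodes the flavoprotein subunit that oxidises succinate, with a probe at chr13:74460310-74460369 (mm9). Sdha stood at 4.62, 4.97 and 4.90 on PEC arrays, 4.22, 4.14 and 4.09 on F4/80high arrays and 5.30, 5.19 and 5.41 on F4/80low arrays. The 3 groups did not overlap, and PECs lay between the TAM subsets. F4/80high TAMs were 1.60-fold below PECs (log2 difference -0.68, SE 0.16, adjusted p 0.00616) and 2.21-fold below F4/80low TAMs (log2 difference -1.14, SE 0.16, adjusted p 0.000773). F4/80low TAMs were 1.38-fold above PECs (log2 difference 0.47, SE 0.16, adjusted p 0.035), so Sdha was called in opposite directions in the subsets. That rise rested on the settings: it was -0.01 with arrays centred on the median, 0.18 with another background correction, 0.36 and 0.50 without PEC replicates 1 and 3, and 0.47 and 0.41 without F4/80low replicates 1 and 3, and passed in none of these. Fitted on the 6 arrays of these groups alone it did not pass either (adjusted p 0.0723). With slide as a block it was 0.67 and passed, and the fall in F4/80high TAMs was -0.47 and did not.

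Sdhb, the iron-sulfur subunit, and Sdhc, a membrane anchor, were lower in F4/80high TAMs than in both other groups. Sdhb measured 7.18, 7.26 and 7.54 on PEC arrays, 6.74, 6.42 and 6.30 on F4/80high arrays and 7.56, 7.39 and 7.35 on F4/80low arrays. Sdhc gave 4.65, 4.74 and 4.88 on PEC arrays, 4.02, 4.11 and 4.08 on F4/80high arrays and 5.00, 4.72 and 4.79 on F4/80low arrays. For both, every F4/80high array lay below all others, and PEC and F4/80low arrays overlapped. Sdhb was lower by 1.79-fold than in PECs (log2 difference -0.84, SE 0.18, adjusted p 0.00383) and by 1.92-fold than in F4/80low TAMs (log2 difference -0.94, SE 0.18, adjusted p 0.00364). Sdhc was lower by 1.61-fold (log2 difference -0.69, SE 0.15, adjusted p 0.00472) and by 1.70-fold (log2 difference -0.77, SE 0.15, adjusted p 0.00472). Against PECs neither fall passed with slide as a block (-0.69 and -0.58). Sdhd, the other membrane anchor, was lower in F4/80high TAMs by 0.45 against PECs and by 0.54 against F4/80low TAMs.

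Complex III, the cytochrome bc1 complex, had 3 of 8 members lower in F4/80high TAMs against PECs (median -0.39) and 3 higher in F4/80low TAMs (median 0.43, and -0.05 with arrays centred on the median). Between the subsets 7 of 8 were lower in F4/80high TAMs (median -0.72). Uqcr10 encodes a small accessory subunit, with its probe at chr11:4601979-4602038 (mm9). Uqcr10 levels were 5.79, 6.15 and 6.10 on PEC arrays, 5.65, 5.27 and 5.22 on F4/80high arrays and 6.81, 6.68 and 6.86 on F4/80low arrays. The groups did not overlap: F4/80low TAMs were highest and F4/80high TAMs lowest. The subset difference was 2.64-fold (log2 difference -1.40, SE 0.18, adjusted p 0.000523). F4/80low TAMs were 1.71-fold above PECs (log2 difference 0.77, SE 0.18, adjusted p 0.00674) and F4/80high TAMs 1.55-fold below (log2 difference -0.63, SE 0.18, adjusted p 0.0162), the second member called in opposite directions. Its other probes gave -1.49 and -1.30 between the subsets. The fall against PECs was lost with slide as a block (-0.41) and without PEC replicate 2 or 3 or F4/80high replicate 2 or 3 (-0.59 to -0.55), and the rise was lost with arrays centred on the median (0.30).

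Uqcrfs1 encodes the Rieske iron-sulfur protein, a catalytic subunit. Uqcrfs1 stood at 4.72, 4.83 and 4.76 on PEC arrays, 4.80, 4.75 and 4.69 on F4/80high arrays and 5.72, 5.32 and 5.47 on F4/80low arrays. PEC and F4/80high arrays overlapped, and all F4/80low arrays lay above them, by 0.74 over PECs (adjusted p 0.00427) and 0.76 over F4/80high TAMs (adjusted p 0.00576). Uqcrc2, a core protein of the complex, followed the same order. Uqcrc2 measured 4.94, 5.16 and 5.19 on PEC arrays, 5.06, 5.10 and 4.89 on F4/80high arrays and 5.77, 5.59 and 5.56 on F4/80low arrays. It was higher in F4/80low TAMs by 0.54 than in PECs (adjusted p 0.0171) and by 0.62 than in F4/80high TAMs (adjusted p 0.014, and 0.0537 without F4/80high replicate 3). With arrays centred on the median, the rises of Uqcrfs1 and Uqcrc2 over PECs were 0.26 and 0.07 and neither passed.

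Uqcr11 and Uqcrb, small accessory subunits, were lower in F4/80high TAMs than in PECs. Uqcr11 gave 6.97, 6.91 and 7.18 on PEC arrays, 6.33, 6.00 and 5.97 on F4/80high arrays and 7.21, 6.84 and 7.16 on F4/80low arrays. For Uqcr11 the F4/80high arrays lay below all others, by 0.92 against PECs (adjusted p 0.00234) and 0.97 against F4/80low TAMs (adjusted p 0.00324). Uqcrb levels were 6.20, 6.61 and 6.67 on PEC arrays, 5.94, 5.61 and 5.75 on F4/80high arrays and 6.29, 5.75 and 6.02 on F4/80low arrays. Uqcrb was the complex III member with the smallest subset difference: it fell by 0.73 in F4/80high TAMs against PECs (adjusted p 0.0149), lay at -0.47 in F4/80low TAMs (adjusted p 0.0803), and the subsets overlapped. The Uqcrb call ended without PEC replicate 2 or 3 or F4/80high replicate 2 (-0.67 to -0.64).

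Complex IV, cytochrome c oxidase, was the one complex with calls in both directions in F4/80high TAMs against PECs. In F4/80high TAMs against PECs 6 of 16 were lower and 3 higher (median -0.34), in F4/80low TAMs 5 were higher and 1 lower (median 0.09, and -0.39 with arrays centred on the median), and between the subsets 9 were lower and 0 higher in F4/80high TAMs (median -0.60). Several of its subunits exist as paired isoforms, one found in most tissues and one mainly in muscle, lung or testis, and their values are given pair by pair.

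Cox7a1 is the isoform known from heart and skeletal muscle, with a probe at chr7:30970337-30970948 (mm9), a span longer than the probe. Cox7a1 stood at 0.79, 0.37 and 0.40 on PEC arrays, 1.58, 1.44 and 1.22 on F4/80high arrays and 2.73, 2.24 and 2.61 on F4/80low arrays. The 3 groups did not overlap, with F4/80low TAMs highest and PECs lowest. F4/80low TAMs lay 4.01-fold above PECs (log2 difference 2.00, SE 0.20, adjusted p 6.09e-05), the widest rise of any member, and F4/80high TAMs 1.86-fold above (log2 difference 0.89, SE 0.20, adjusted p 0.0049), which blocking on slide ended (0.62). The subsets differed by 2.16-fold (log2 difference -1.11, SE 0.20, adjusted p 0.00282). Cox7a2 is the isoform of most tissues. Cox7a2 measured 5.93, 6.06 and 6.25 on PEC arrays, 5.67, 5.38 and 5.55 on F4/80high arrays and 6.31, 6.08 and 6.07 on F4/80low arrays. It was lower in F4/80high TAMs by 0.55 against PECs (adjusted p 0.0208) and 0.62 against F4/80low TAMs (adjusted p 0.0189), and F4/80low and PEC arrays overlapped. Cox7a2l, which encodes a related protein, was highest in F4/80low TAMs. Cox7a2l gave 7.29, 6.97 and 7.03 on PEC arrays, 7.05, 6.59 and 6.51 on F4/80high arrays and 7.82, 7.65 and 7.69 on F4/80low arrays. It lay 1.54-fold above PECs (log2 difference 0.62, SE 0.19, adjusted p 0.0213) and 2.00-fold above F4/80high TAMs (adjusted p 0.00348), whose arrays overlapped with PECs.

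Cox4i1 and Cox4i2 are the isoforms of a subunit through which ATP is known to inhibit the enzyme, Cox4i2 being found mainly in lung and under low oxygen. Cox4i1 levels were 7.80, 7.88 and 7.95 on PEC arrays, 7.81, 7.66 and 7.63 on F4/80high arrays and 8.47, 8.29 and 8.50 on F4/80low arrays. Cox4i1 was higher in F4/80low TAMs, by 0.54 over PECs (adjusted p 0.0147) and 0.72 over F4/80high TAMs (adjusted p 0.0058), and the other groups overlapped. Cox4i2 stood at -0.01, -0.63 and -0.76 on PEC arrays, -0.03, 0.20 and 0.14 on F4/80high arrays and -0.14, -0.03 and 0.16 on F4/80low arrays. Cox4i2 was 0.57 above PECs in F4/80high TAMs, a narrow call (adjusted p 0.0497) whose arrays overlapped with PECs through PEC replicate 1, and with slide as a block the difference was 0.12. Cox6b2, the testis isoform of a subunit that faces the intermembrane space, was higher in both TAM subsets. Cox6b2 measured -1.19, -1.55 and -1.79 on PEC arrays, -0.49, -0.07 and -0.64 on F4/80high arrays and 0.03, -1.05 and -0.74 on F4/80low arrays. It rose by 1.11 in F4/80high TAMs (adjusted p 0.0118) and by 0.93 in F4/80low TAMs (adjusted p 0.0276), and neither passed with slide as a block (0.79 and 0.60). The rise in the F4/80low subset also did not pass with quantile normalization (0.73).

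Cox6b1, its counterpart in most tissues, passed no test. Cox6b1 gave 4.02, 3.82 and 4.29 on PEC arrays, 3.76, 3.68 and 3.54 on F4/80high arrays and 4.38, 3.97 and 4.07 on F4/80low arrays. The F4/80high arrays were lowest for it, at -0.48 against F4/80low TAMs (adjusted p 0.0784). Cox6a1 and Cox6a2 are the general and the muscle isoform of another accessory subunit. Cox6a1 levels were 8.88, 9.14 and 9.29 on PEC arrays, 8.75, 8.37 and 8.50 on F4/80high arrays and 9.26, 8.94 and 9.25 on F4/80low arrays. Cox6a1 was lower in F4/80high TAMs by 0.56 against PECs (adjusted p 0.0299) and by 0.61 against F4/80low TAMs (adjusted p 0.0332), the latter lost with the replicate number as a block (adjusted p 0.0515). Cox6a2 stood at 0.59, 1.82 and 1.28 on PEC arrays, 1.30, 1.14 and 0.87 on F4/80high arrays and 0.59, 0.71 and 0.34 on F4/80low arrays. Cox6a2 passed no test, and its PEC arrays were spread over a wider range than either TAM group.

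Cox8a encodes a small structural subunit, and its muscle and testis isoforms Cox8b and Cox8c were not well above background. Cox8a measured 8.55, 8.46 and 8.73 on PEC arrays, 8.44, 8.26 and 8.12 on F4/80high arrays and 9.26, 9.02 and 9.08 on F4/80low arrays. Cox8a was higher in F4/80low TAMs by 0.54 than in PECs (adjusted p 0.0209) and by 0.85 than in F4/80high TAMs (adjusted p 0.00394), and the 3 groups did not overlap. Cox7c, a small accessory subunit, had the widest fall in F4/80high TAMs against PECs among the members counted under complex IV by name, which leaves out Ndufa4. Cox7c gave 5.56, 5.57 and 5.71 on PEC arrays, 5.06, 4.74 and 4.48 on F4/80high arrays and 5.64, 5.17 and 5.48 on F4/80low arrays. It was 1.81-fold below PECs (log2 difference -0.85, SE 0.20, adjusted p 0.00589) and 1.59-fold below F4/80low TAMs (adjusted p 0.0294). Cox5a, the subunit that binds a thyroid hormone metabolite, passed no test. Cox5a levels were 7.77, 7.87 and 8.01 on PEC arrays, 7.93, 7.53 and 7.54 on F4/80high arrays and 8.10, 7.59 and 8.04 on F4/80low arrays. The groups overlapped in every comparison of it.

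Emc8, which is no subunit, was lower in both TAM subsets. Emc8 stood at 2.26, 2.34 and 2.59 on PEC arrays, 1.58, 1.64 and 1.71 on F4/80high arrays and 1.18, 1.47 and 2.24 on F4/80low arrays. It fell by 0.75 in F4/80high TAMs (adjusted p 0.0342) and by 0.77 in F4/80low TAMs (adjusted p 0.0324). Leaving out 1 array ended several of these calls. In F4/80high TAMs against PECs it ended those of Cox4i2, Cox6a1, Cox7a2 and Emc8 (-0.79 to 0.64), with PEC replicates 2 or 3 or any F4/80high replicate left out. In F4/80low TAMs against PECs it ended those of Cox6b2, Cox7a2l, Cox8a and Emc8 (-0.79 to 0.91), with PEC replicates 2 or 3 or F4/80low replicates 1 or 2 left out. Between the subsets it ended those of Cox6a1, Cox7a2 and Cox7c (-0.66 to -0.52), with F4/80high replicates 2 or 3 or F4/80low replicates 1 or 3 left out.

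Complex V, the ATP synthase, had 7 of 16 members lower and 0 higher in F4/80high TAMs against PECs (median -0.45). The F4/80low subset had 4 higher and 0 lower (median 0.18, and -0.29 with arrays centred on the median), and between the subsets 9 were lower and 0 higher in F4/80high TAMs (median -0.56). Atp5b encodes the catalytic beta subunit of the F1 head, with a probe at chr10:127527255-127527314 (mm9). Atp5b measured 7.60, 7.91 and 7.88 on PEC arrays, 7.92, 7.87 and 7.76 on F4/80high arrays and 8.60, 8.48 and 8.42 on F4/80low arrays. PEC and F4/80high arrays overlapped, and the F4/80low arrays lay above both, by 1.63-fold over PECs (log2 difference 0.71, SE 0.16, adjusted p 0.00517) and 1.57-fold over F4/80high TAMs (adjusted p 0.0118). Atp5c1 encodes the gamma subunit, the rotating shaft. Atp5c1 gave 6.64, 6.69 and 6.84 on PEC arrays, 6.49, 6.20 and 5.94 on F4/80high arrays and 7.25, 6.97 and 6.98 on F4/80low arrays. F4/80high TAMs lay 0.86 below F4/80low TAMs (adjusted p 0.00708) and 0.52 below PECs (adjusted p 0.0419), but its other probe gave 0.07 against PECs. Atp5d, the delta subunit of the shaft, was highest in F4/80low TAMs. Atp5d levels were 5.47, 5.37 and 5.79 on PEC arrays, 5.37, 5.10 and 4.86 on F4/80high arrays and 6.15, 6.12 and 6.11 on F4/80low arrays. It lay 0.58 above PECs (adjusted p 0.0266) and 1.02 above F4/80high TAMs (adjusted p 0.00298), with PEC replicate 2 and F4/80high replicate 1 both at 5.37.

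Atp5g1, Atp5g2 and Atp5g3 encode the same mature subunit of the c-ring, the rotor in the membrane, with different import sequences. Atp5g3 stood at 7.49, 7.43 and 7.66 on PEC arrays, 7.08, 7.15 and 7.13 on F4/80high arrays and 8.36, 7.99 and 8.48 on F4/80low arrays. For Atp5g3 (chr2:73746519-73746578, mm9) the 3 groups did not overlap, with F4/80low TAMs 1.69-fold above PECs (log2 difference 0.75, SE 0.17, adjusted p 0.0061) and 2.23-fold above F4/80high TAMs (log2 difference -1.16, SE 0.17, adjusted p 0.00111). Atp5g1 measured 7.13, 7.28 and 7.36 on PEC arrays, 6.85, 6.50 and 6.67 on F4/80high arrays and 7.59, 7.25 and 7.44 on F4/80low arrays. Atp5g2 gave 8.13, 8.14 and 8.30 on PEC arrays, 7.85, 7.59 and 7.40 on F4/80high arrays and 8.19, 8.12 and 8.05 on F4/80low arrays. Atp5g1 and Atp5g2 were both lower by 0.58 in F4/80high TAMs than in PECs (adjusted p 0.0168 and 0.0164), and their PEC and F4/80low arrays overlapped. They were lower than in F4/80low TAMs by 0.75 (adjusted p 0.00837) and 0.51 (adjusted p 0.0433), and the Atp5g2 call was lost with the replicate number as a block (adjusted p 0.0704).

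Atp5o encodes the subunit that links the head to the outer stalk. Atp5o levels were 4.55, 4.48 and 4.75 on PEC arrays, 4.57, 4.56 and 4.44 on F4/80high arrays and 5.43, 5.05 and 5.33 on F4/80low arrays. It was higher in F4/80low TAMs by 0.68 than in PECs (adjusted p 0.0078) and by 0.75 than in F4/80high TAMs (adjusted p 0.0076), and those groups overlapped. Atp5e, the smallest subunit of the head, and Atp5k, a subunit of the membrane part known for holding dimers together, were lower in F4/80high TAMs than in PECs. Atp5e stood at 7.73, 7.91 and 8.16 on PEC arrays, 7.41, 7.15 and 7.15 on F4/80high arrays and 7.62, 7.28 and 7.65 on F4/80low arrays. Atp5k measured 6.00, 6.31 and 6.64 on PEC arrays, 5.75, 5.40 and 5.83 on F4/80high arrays and 6.02, 5.86 and 6.18 on F4/80low arrays. The falls were 0.70 for Atp5e (adjusted p 0.0107) and 0.66 for Atp5k (adjusted p 0.0259), and neither passed between the subsets. Dmac2, an assembly factor of complex I and no subunit of complex V, was also lower in F4/80high TAMs against PECs. Dmac2 gave 2.92, 2.58 and 2.82 on PEC arrays, 2.09, 2.33 and 2.11 on F4/80high arrays and 2.20, 2.79 and 2.62 on F4/80low arrays. Its fall was 0.59 (adjusted p 0.0299), with no overlap between those groups.

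Some complex V calls rested on single arrays. In F4/80high TAMs against PECs those of Atp5c1, Atp5g1, Atp5g2, Atp5k and Dmac2 ended (-0.66 to -0.38) when 1 of the 6 arrays was left out. Against PECs, the Atp5d call of the F4/80low subset ended without PEC replicate 1 or 2 or any F4/80low replicate (0.50 to 0.59). Between the subsets the Atp5g2 call ended without F4/80high replicate 2 or 3 or any F4/80low replicate (-0.54 to -0.40). With arrays centred on the median, none of Atp5b, Atp5d, Atp5g3 and Atp5o passed in F4/80low TAMs against PECs (0.11 to 0.28).

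Probes of the same gene gave like directions, but not always the same call. Of the 23 members with several probes (52 probes in all), every probe had the same sign for 22 in F4/80high TAMs against PECs, with Atp5c1 the exception. The count was 22 in F4/80low TAMs against PECs, with Atp5j2 the exception, and 23 between the subsets. Besides Ndufb5, another probe of some called members did not pass. In F4/80high TAMs against PECs this held for Atp5c1 (0.07), Ndufb11 (-0.10, adjusted p 0.772 over all probes) and 1 of the other Uqcrb probes (-0.48). In F4/80low TAMs against PECs it held for Cox8a (0.33). Between the subsets it held for Atp5c1 (-0.47), Cox7c (-0.37) and 1 of the other Atp5l probes (-0.47, adjusted p 0.08). Conversely, another probe passed for some members whose brightest probe did not, with adjusted p over all probes. Besides Ndufb5, F4/80high TAMs against PECs had Ndufv3 (-0.72, adjusted p 0.0375), Cox7a2l (-0.49, adjusted p 0.0273) and Cox8a (-0.44, adjusted p 0.0375). Ndufb11 (0.78, adjusted p 0.0357), Uqcrq (0.45, adjusted p 0.0351) and Uqcrh (0.44, adjusted p 0.0445) did so when the F4/80low subset was set against PECs. Ndufb6 (-0.58, adjusted p 0.0299), Atp5h (-0.61, adjusted p 0.0324) and Atp5j2 (-0.54, adjusted p 0.0402) did so between the subsets.

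**Figure D4:**
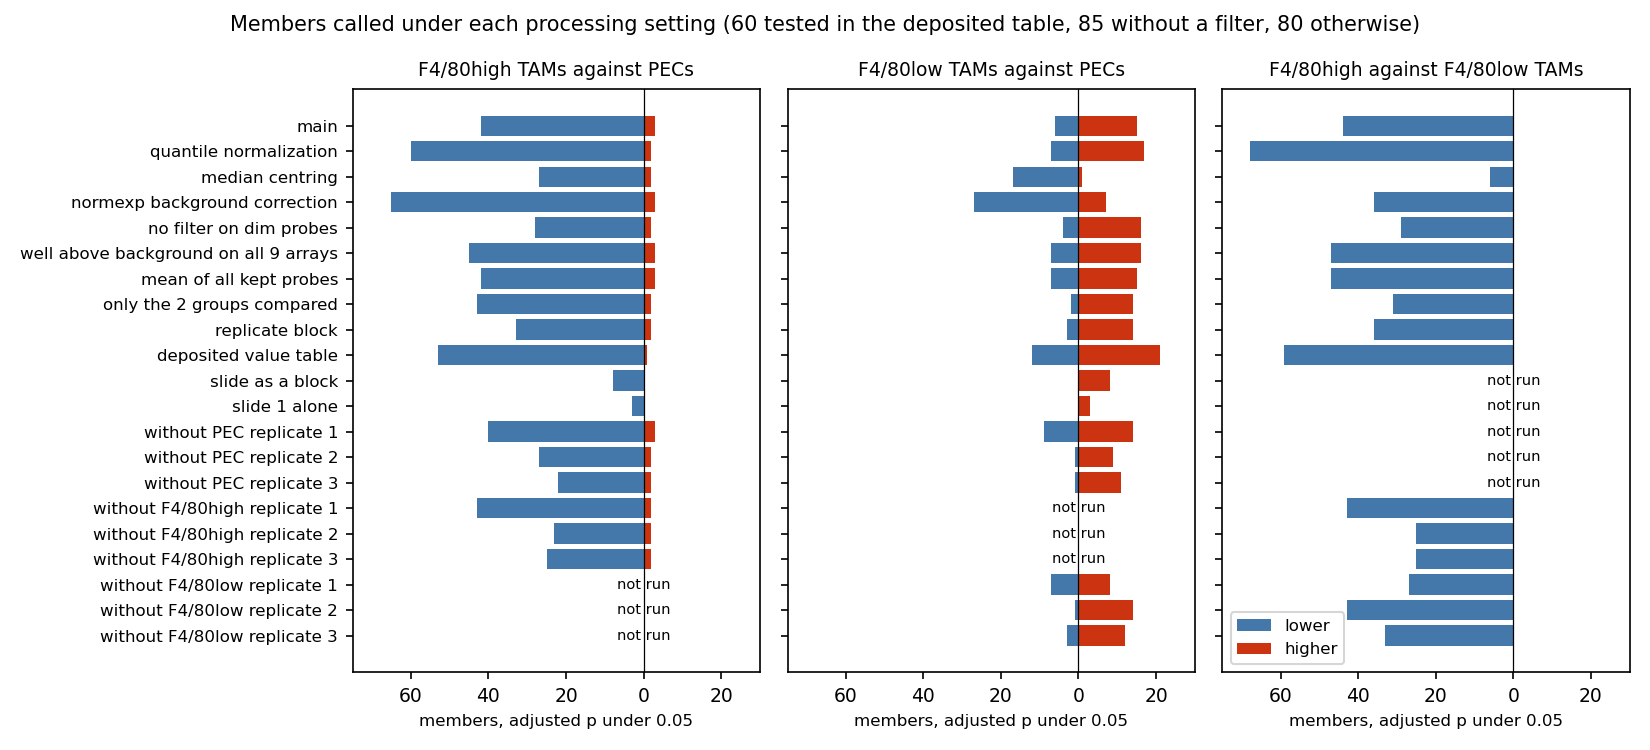
Number of members past the test under each processing setting (bars to the left are lower, to the right higher), 1 panel per comparison. In F4/80high TAMs against PECs and between the subsets the calls were mostly or all lower under every setting run, while F4/80low TAMs against PECs had 15 higher and 6 lower in the main setting but 1 and 17 with arrays centred on the median.

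The mitochondrial genome encodes the other core subunits of complexes I, III, IV and V, and 12 of these genes were on the array. Against PECs, 1 of 12 was higher and 0 lower in F4/80high TAMs (median 0.14), and 11 were higher and 0 lower in F4/80low TAMs (median 1.00). Between the subsets 9 were lower and 1 higher in F4/80high TAMs (median -0.82). Of all genes, 53.1%, 51.9% and 32.6% were called in these comparisons. ATP8, a small subunit of complex V, averaged 5.13 ± 0.31 on PEC arrays, 5.73 ± 0.06 on F4/80high arrays and 6.51 ± 0.27 on F4/80low arrays (SD, n = 3). CYTB, the mitochondrially encoded core of complex III, averaged 7.99 ± 0.21, 8.19 ± 0.17 and 9.16 ± 0.26 in the same order. The proton-pumping subunits of complex I ND1, ND2 and ND5 reached 6.11 ± 0.40, 8.89 ± 0.22 and 6.25 ± 0.27 on F4/80low arrays, from 4.93 ± 0.28, 7.74 ± 0.25 and 5.20 ± 0.35 on PEC arrays. F4/80low TAMs thus exceeded PECs by 1.38 for ATP8 (adjusted p 0.000627), 1.18 for ND1 (adjusted p 0.00269), 1.17 for CYTB (adjusted p 0.00116), 1.15 for ND2 (adjusted p 0.000928) and 1.04 for ND5 (adjusted p 0.00425). Between the subsets ND2 (-1.31, adjusted p 0.00083) and ND5 (-1.25, adjusted p 0.00262) had the widest falls in F4/80high TAMs.

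The single calls in the other direction were less stable. ATP8 was the gene that rose in the F4/80high subset over PECs (0.60, SE 0.21, adjusted p 0.0344). It did not pass with quantile normalization (0.50), with arrays centred on the median (0.45), without a filter on dim probes, with slide as a block or on slide 1 alone (0.31 in each), or without PEC replicate 2 or 3 or any F4/80high replicate (0.44 to 0.63). ND6, the one protein gene read from the opposite strand of that genome, was the exception between the subsets, at 1.21 higher in F4/80high TAMs (SE 0.39, adjusted p 0.0421). That call ended with quantile normalization (1.11), without a filter on dim probes, with the 2 groups fitted alone (adjusted p 0.0836), and without F4/80high replicate 1 or 3 or F4/80low replicate 1 or 2 (0.74 to 1.34). Centred on the median, the 9 lower calls between the subsets became 4 and the 11 higher calls of F4/80low TAMs against PECs became 4. The latter count was 6 with slide as a block and 3 on slide 1 alone, all higher.

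**Figure D5:**
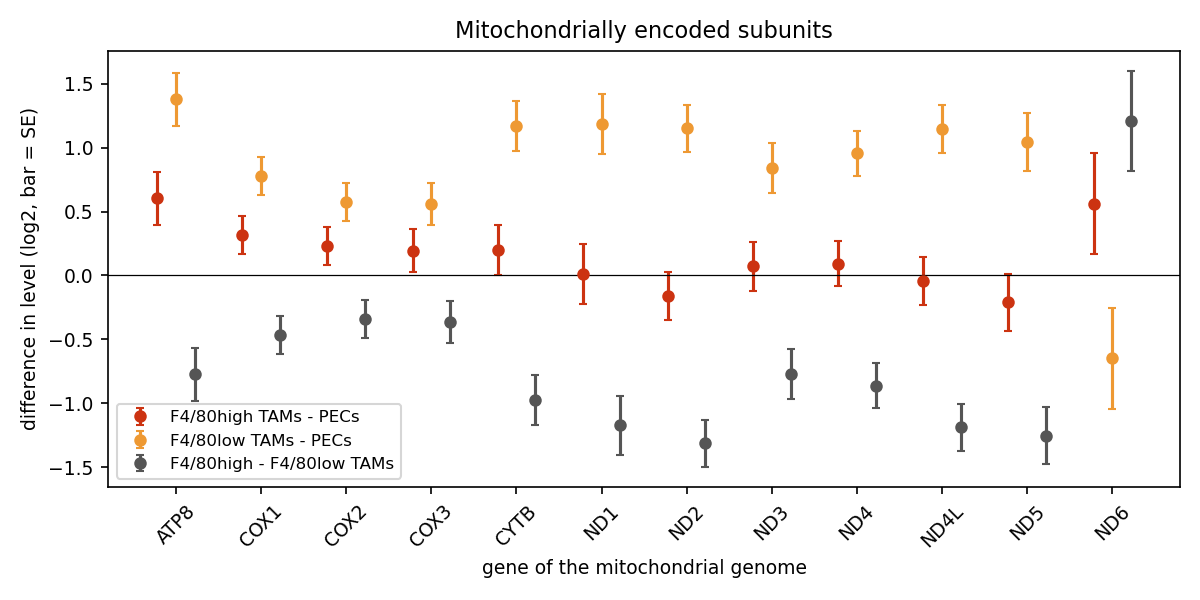
Log2 difference of the 12 mitochondrially encoded genes in each comparison, with the standard error as bars. In F4/80low TAMs against PECs 11 genes lie above 0 and ND6 lies below, and in F4/80high TAMs against PECs most lie near 0.

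Genes around the chain were counted by list, and the up to 3 largest changes past the test are named from each list and comparison. Over all genes 53.1%, 51.9% and 32.6% were called in the 3 comparisons, with 28%, 29.2% and 14% lower. Most list counts below lay near or under the shares called, so they are given as counts and not as traits of the lists. Of 7 nuclear subunits or companions outside the naming rule, 2 were lower in F4/80high TAMs against PECs: Higd2a, a factor in complex IV assembly (-0.87, adjusted p 0.00908), and Atpif1, the inhibitor of ATP hydrolysis by complex V (-0.73, adjusted p 0.00733). Atpif1 also fell by 0.55 in F4/80low TAMs (adjusted p 0.0282), while Cyc1, which encodes cytochrome c1 of complex III, was 0.74 above PECs there (adjusted p 0.00986). Cyc1 (-1.15, adjusted p 0.00169) and Atp5mpl, a small complex V subunit (-0.59, adjusted p 0.0299), were lower in F4/80high than in F4/80low TAMs.

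Assembly factors of complex I had 1 of 16 higher and 7 lower in F4/80high TAMs and 0 higher and 7 lower in F4/80low TAMs against PECs. Tmem126b, needed for the membrane arm, fell by 1.59 and 2.20 (adjusted p 8.43e-05 and 1.76e-05), and Ndufaf7, a methyltransferase acting on a complex I subunit, by 2.09 and 1.15 (adjusted p 0.00157 and 0.0308). Tmem126a fell by 1.48 in F4/80low TAMs (adjusted p 0.000367). Tmem186 was not well above background in F4/80high TAMs and was at least 2.35-fold lower there than in PECs (adjusted p 0.00192). Between the subsets 4 were higher and 3 lower in F4/80high TAMs, among them Ndufaf8 (0.89, adjusted p 0.0172), Ecsit (-0.77, adjusted p 0.0142) and Tmem186 (adjusted p 0.0476, above background on 2 of 3 F4/80low arrays).

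Those of complexes II and III had 1 of 9 higher and 6 lower in F4/80high TAMs, and 1 higher and 4 lower in F4/80low TAMs. Sdhaf4, which helps assemble the succinate dehydrogenase flavoprotein, was down by 1.47 and 1.66 (adjusted p 0.000134 and 8.95e-05), and Uqcc3, an assembly factor of complex III, by 1.39 in F4/80high TAMs (adjusted p 6.83e-05) and also in F4/80low TAMs (adjusted p 0.000358). Sdhaf3, which serves the iron-sulfur subunit, was not well above background in F4/80high TAMs, at least 1.98-fold below PECs (adjusted p 0.0018), and was above it on 1 of 3 F4/80low arrays (adjusted p 0.0122, lower). Neither Sdhaf3 call passed with normexp (adjusted p 0.0821 and 0.579). Sdhaf1, which serves the same subunit, was the one call between the subsets (-0.81, adjusted p 0.0455).

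Assembly factors of complex IV had 2 of 21 higher and 7 lower in F4/80high TAMs and 0 higher and 9 lower in F4/80low TAMs against PECs, and between the subsets 5 were higher and 2 lower in F4/80high TAMs. Surf1 fell by 1.67 and 1.07 against PECs (adjusted p 0.000837 and 0.0101). Sco1, a copper chaperone of the complex, was 1.65 above PECs in F4/80high TAMs (adjusted p 0.00204) and 1.36 above F4/80low TAMs (adjusted p 0.00969). Cox18, which helps insert a core subunit into the membrane, rose by 1.62 over PECs (adjusted p 0.00127) and by 1.06 over F4/80low TAMs (adjusted p 0.0189). Coa3 and Coa4 fell by 1.42 and 1.19 in F4/80low TAMs against PECs (adjusted p 0.000206 and 0.000309), and Cmc2 was 1.14 lower in F4/80high than in F4/80low TAMs (adjusted p 0.0213). Of 4 tested assembly factors of complex V, Tmem242 fell by 0.76 and 1.35 (adjusted p 0.00308 and 0.000147) and was 0.59 higher in F4/80high than in F4/80low TAMs (adjusted p 0.0189).

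Among electron carriers and ubiquinone enzymes, 3 of 18 were higher and 9 lower in each TAM subset against PECs. Coq10a, a ubiquinone-binding protein, stood at 1.49 ± 0.25 in PECs and fell by 2.59 in F4/80low TAMs (SD, n = 3, adjusted p 0.000377). It was also lower in F4/80high TAMs (adjusted p 6.83e-05), where 1 of 3 arrays was above background, so no size is given. Pdss1, which makes the ubiquinone tail, was 1.56 above PECs in F4/80high TAMs (adjusted p 0.000373) and 0.96 above F4/80low TAMs (adjusted p 0.00971), while Coq7, a hydroxylase of ubiquinone synthesis, was 1.32 below PECs in F4/80high TAMs (adjusted p 0.000463). Coq8a, an atypical kinase of that route, rose by 4.28 in F4/80low TAMs against PECs (adjusted p 2.06e-05) and was at least 22-fold lower in F4/80high than in F4/80low TAMs. Coq5, a methyltransferase of the route, fell by 1.13 in F4/80low TAMs (adjusted p 0.00151). Pdss2, the partner of Pdss1, was higher in F4/80high than in F4/80low TAMs (adjusted p 0.0143), above background on 1 of 3 F4/80low arrays.

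Carriers of ATP, ADP and phosphate and proton leak genes had 3 of 9 lower and 0 higher in F4/80high TAMs and 2 higher and 3 lower in F4/80low TAMs against PECs. Vdac2, a channel of the outer membrane, had the largest change of the list, from 7.58 ± 0.20 in PECs to 6.00 ± 0.73 in F4/80high and 6.46 ± 0.07 in F4/80low TAMs (SD, n = 3), falls of 1.58 and 1.13 (adjusted p 0.00266 and 0.0155). Ucp2, of the uncoupling protein family, fell by 0.71 and 0.80 (adjusted p 0.0455 and 0.0301), and its relative Ucp3 by 0.80 in F4/80low TAMs (adjusted p 0.0478). Vdac1 was lower in F4/80high TAMs by 0.63 against PECs (adjusted p 0.0123) and by 0.57 against F4/80low TAMs (adjusted p 0.0308). Slc25a4 and Slc25a5, the ADP/ATP carriers, were lower in F4/80high than in F4/80low TAMs by 0.86 and 0.71 (adjusted p 0.00418 and 0.0193).

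Of 21 regulators of mitochondrial biogenesis, 3 were higher and 5 lower in F4/80high TAMs and 2 higher and 5 lower in F4/80low TAMs. Ppargc1b, a coactivator of respiratory chain genes, was not well above background in PECs and was at least 2.99-fold higher in F4/80high TAMs (adjusted p 0.0013) and at least 7.13-fold higher in F4/80low TAMs (adjusted p 6.77e-05). It was 1.25 lower in F4/80high than in F4/80low TAMs (adjusted p 0.0115). Its relative Ppargc1a was above background in PECs and not well above it on any TAM array, at least 1.45-fold and at least 1.37-fold lower (adjusted p 0.000309 and 0.000531), and passed in neither subset with normexp. Gabpb1, a subunit of GABP, went from 1.77 ± 0.19 in PECs to 3.27 ± 0.15 in the F4/80high subset (SD, n = 3, adjusted p 0.00018). Twnk, the helicase that unwinds mitochondrial DNA, was not well above background in F4/80high TAMs, at least 1.95-fold below F4/80low TAMs (adjusted p 0.00075), and was higher in F4/80low TAMs than in PECs (adjusted p 0.0215), where 1 of 3 arrays was above background. Tefm, an elongation factor of mitochondrial transcription, was 1.96 higher in F4/80high than in F4/80low TAMs (adjusted p 0.00131). The "at least" folds here and in the lists above set the dim group at the lowest signal called well above background on its arrays where that was higher than its own. An adjusted p beside such a fold comes from the measured levels, which lay below that signal on average, and does not test the fold.

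Of the calls named from the lists of nuclear genes, 20 of 21 in F4/80high TAMs against PECs, 15 of 21 in F4/80low TAMs against PECs and 9 of 19 between the subsets held whichever single array was left out. The calls that ended were Ucp2 in the first (-0.70 to -0.55), Atpif1, Ndufaf7, Vdac2, Ucp2, Ucp3 and Twnk in the second (-1.11 to 0.96), and Atp5mpl, Tmem186, Ndufaf8, Ecsit, Sdhaf1, Cmc2, Cox18, Tmem242, Slc25a5 and Vdac1 in the third (-1.24 to 1.04). With slide as a block 17 of 21 and 13 of 21 held, the losses being Atpif1, Vdac2, Ucp2 and Vdac1 in F4/80high TAMs and Atpif1, Ndufaf7, Sdhaf3, Surf1, Vdac2, Ucp2, Ucp3 and Twnk in F4/80low TAMs. With arrays centred on the median 21, 19 and 9 held. With normexp the calls of Sdhaf3 and Ppargc1a ended in both comparisons with PECs and that of Vdac2 in F4/80low TAMs. Between the subsets normexp ended those of Atp5mpl, Tmem186, Ndufaf8, Sdhaf1, Sco1 (0.47, adjusted p 0.0875) and Pdss2 (adjusted p 0.163). Under every setting run 4 of 19 held between the subsets.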

How the data were processed

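Total RNA of 9 samples was measured on 9 single-colour arrays. Spot intensities on a linear scale were deposited by the authors as Agilent Feature Extraction 10.5.1.1 wrote them, background already subtracted, per the file headers, with probe positions on mm9. A deposited table of log2 values covers 9703 features; its normalization is not given in the sources used here, and it holds 60 members and served as an alternative. After log2 conversion, an array's values were set relative to the 75th percentile of its non-control spots. Outlier-marked spots were left out, spots of a probe were averaged, probes well above background on all 3 arrays of a group were kept (21194), and the brightest stood for its gene. Symbols came from a RefSeq table by accession (26413 probes; 29268 kept the file's name). All 9 arrays entered 1 limma 3.58.1 fit (R 4.3.3) with Benjamini-Hochberg adjustment over all genes; the method was tested on simulated data. The number of arrays limits the precision, with a median standard error of 0.236. Named were, in each complex and comparison, the up to 3 largest falls and rises past the threshold, catalytic subunits, isoform families and members called in opposite directions; from each other list and comparison, the up to 3 largest changes past the threshold, except that cell type and proliferation lists are given by counts, sums and genes above background in some groups only. Members and lists were chosen with earlier results of these data known. Same-numbered F4/80high and F4/80low arrays had residual correlations of 0.23, 0.17 and 0.13, other pairs of these at most 0.02, so the number was also fitted as a replicate block; PEC numbers did not pair (-0.10 to 0.09). Alternatives were quantile and median scaling, normexp, probe filters, slide, and leaving out each array. With slide as a block, differences from PECs rest on PEC replicate 1 and are no adjustment that uses the level of all PEC arrays.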

Additional observations from a re-analysis of the deposited data

Results flagged for a closer look

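Of the 44 members called between the TAM subsets, those also called in both subsets against PECs were singled out. In both subsets against PECs 10 members were called, and 4 of these were also called between the subsets. The test was the contrast of F4/80high against F4/80low TAMs, which is the difference of both effects, and the limma adjusted p-values are those of that contrast. Ndufa4 differed by -1.53 (adjusted p 0.000382), with falls of 2.33 and 0.80 against PECs. Sdha differed by -1.14 (adjusted p 0.000773), at -0.68 in F4/80high and 0.47 in F4/80low TAMs. Uqcr10 differed by -1.40 (adjusted p 0.000523), at -0.63 and 0.77. Cox7a1 differed by -1.11 (adjusted p 0.00282), with rises of 0.89 and 2.00. For each of the 4, no F4/80high array overlapped an F4/80low array, as for 46.7% of all genes. Since the 4 were picked by passing this contrast, its adjusted p-values only restate that choice, and the lack of overlap adds nothing to it. The share of all genes called in both subsets against PECs and also between the subsets was not counted. The 4 members thus have no background to be set against and are not read as a trait of the chain. Singly, 53.1% of all genes were called in F4/80high and 51.9% in F4/80low TAMs against PECs, and 32.6% between the subsets.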

How the results depend on the processing

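Counts of members past the threshold changed with the setting, and so did the share of all genes called, given here in percent. In F4/80high TAMs against PECs (45 of 80; 53.1%) they were 29 with median centring (45.2%), 68 with normexp (53.1%), 8 with slide as a block (34.2%) and 3 on slide 1 alone (29.7%), and 24 to 45 with 1 array left out (42.6% to 52.1%). In F4/80low TAMs against PECs (21, of which 15 higher; 51.9%) they were 18 with median centring (1 higher; 53.0%) and 34 with normexp (7 higher; 53.5%), so the balance turned to lower. They were 33 of 60 in the deposited table (21 higher; 75.8%), 8 with slide as a block (29.8%) and 3 on slide 1 alone (25.1%), and 10 to 23 with 1 array left out (40.1% to 51.4%). Between the subsets (44; 32.6%) they were 68 with quantile normalization (32.7%), 6 with median centring (32.5%) and 29 of 85 without a filter on dim probes (12.6%), and 25 to 43 with 1 array left out (23.8% to 30.2%). The Sdha difference in F4/80low TAMs against PECs turned to -0.0082 with median centring.

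With the replicate number as a block the counts were 35, 17 and 36, and between the subsets, the pair of groups whose numbers pair, Cox6a1 and Atp5g2 were the named calls lost. All 45 calls of the first comparison and 44 of the last kept their sign under every setting run, and 20 of 21 of the other, Sdha being the exception. Past the threshold under every setting were Ndufa4, Ndufs5 and Ndufs7 in the first, Cox7a1 in the second, and Ndufa4, Ndufs7, Sdha, Uqcr10, Cox7a1 and Atp5g3 in the third. The cause of these changes was not tested; with 36.1% to 38.3% of spots well above background, an array's median falls among dim spots.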
